A study of Mus musculus with 6 samples.

Results

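The miR-29 family comprised 7 mature microRNA (miRNA) arms, taken from the table of counts by name. They were the 3p arms of miR-29a, miR-29b and miR-29c and the 5p arms miR-29a-5p, miR-29b-1-5p, miR-29b-2-5p and miR-29c-5p. All 7 names were among the 1077 mature miRNAs of the table, and all 7 were among the 488 that passed the filter on low counts. The series sequenced small RNA of inflamed mouse pancreas. There were 3 libraries of mice whose blood triglycerides were raised as well (HTG in the sample titles) and 3 of control mice with pancreatitis alone. Pancreatitis was common to both groups, so the comparison was within inflamed tissue and not with healthy pancreas. The strain, the age, the way pancreatitis and the raised triglycerides were brought about and the time after onset are not stated in the labels. It is not stated either if separate mice gave the 3 libraries of each group, so p-values rest on a spread that may be technical.

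MiRNAs are short RNAs that guide the silencing complex to messenger RNAs and lower their translation and stability. Pairing rests mainly on the seed, the bases near the 5′ end of the miRNA, so arms with the same seed share most of their targets. The 3p arms of miR-29 are known as repressors of the extracellular matrix: they target messenger RNAs of collagens, elastin and fibrillin, and transforming growth factor beta lowers them in fibroblasts of several organs. In the pancreas, stellate cells lay down collagen after injury. Each miRNA hairpin gives a 5p and a 3p arm, of which usually 1 is kept as the guide and the other is mostly degraded. Messenger RNAs were not measured in these libraries, so no collagen gene was followed here.

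The mature sequences are shown because the family is defined by them and because its arms could be told apart in the counts only where they differ. They are RefSeq sequences on GRCm38.p6, written 5′ to 3′, with the seed (bases 2 to 8) in capitals, and they matched all 7 members.
mmu-miR-29a-3p: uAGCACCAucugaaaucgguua
mmu-miR-29c-3p: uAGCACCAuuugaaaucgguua
mmu-miR-29b-3p: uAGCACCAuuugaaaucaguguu
mmu-miR-29a-5p: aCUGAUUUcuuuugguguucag
mmu-miR-29c-5p: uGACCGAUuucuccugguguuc
mmu-miR-29b-1-5p: gCUGGUUUcauauggugguuua
mmu-miR-29b-2-5p: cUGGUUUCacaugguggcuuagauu
The 3 3p arms had the same seed, and no other mature miRNA of the RefSeq table had it. Counted from 1 at the 5′ end, miR-29a-3p and miR-29c-3p differed by C10U alone, where the first letter is the base of miR-29a-3p. Set against miR-29c-3p, whose bases come first, miR-29b-3p carried G18A, U21G and A22U and 1 further base at its 3′ end, after 17 identical bases. The 4 5p arms had 4 different seeds. The number of mismatches allowed in alignment is not given in the sources used here, so some reads of miR-29a-3p and miR-29c-3p may have been counted for the other, and reads of miR-29b-3p or miR-29c-3p cut to 17 bases could not be told apart.

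The arms came from 4 hairpins in a pair of clusters. Mir29a (chromosome 6, 31062660 to 31062747, - strand) and Mir29b-1 (chromosome 6, 31063023 to 31063093, - strand) lay 275 bases apart. Mir29b-2 (chromosome 1, 195037040 to 195037120, + strand) and Mir29c (chromosome 1, 195037547 to 195037634, + strand) lay 426 bases apart. In the GENCODE M21 annotation of GRCm38, Mir29b-1 overlapped an exon of the long noncoding gene Gm27019, and Mir29a overlapped no gene other than its own. Mir29b-2 and Mir29c overlapped exons of the noncoding gene A330023F24Rik on their strand and exons of the coding gene Cd46 on the opposite strand. The hairpins of miR-29b are shown because they show which of its arms can be placed, with the mature arms in capitals, the 5p arm first.
Mir29b-1: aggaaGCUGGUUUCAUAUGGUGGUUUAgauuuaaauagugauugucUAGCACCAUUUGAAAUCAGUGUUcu
Mir29b-2: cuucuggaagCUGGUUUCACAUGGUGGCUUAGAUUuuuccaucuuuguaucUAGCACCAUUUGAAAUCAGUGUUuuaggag
Both gave the same miR-29b-3p, so its counts cannot be assigned to a cluster, whereas miR-29b-1-5p and miR-29b-2-5p differ and mark 1 hairpin each.

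The libraries held 6514498 to 19773579 counts. Levels are given in CPM, counts relative to library size, scaled by trimmed mean of M-values (TMM), which sets the bulk of miRNAs equal between libraries. A count of 0 allows up to 0.137 to 0.387 CPM, taking 3 counts as the limit, which covers counting error only. No member was near it: the lowest count was 45, of miR-29b-1-5p in HTG library 1. The acinar marker miR-148a-3p stood between 281666 and 492106 CPM, while the liver marker miR-122-5p stood between 1.11 and 7.50 CPM. The libraries numbered 1 stood apart from the rest. A principal component with 49.3% of the variance put HTG 1 at -13.3 and control 1 at -7.66, with the other 4 between 3.29 and 6.74. Results are therefore also given without them.

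The family was dominated by 1 arm. MiR-29a-3p stood at 12817, 15013 and 16348 CPM in HTG libraries 1, 2 and 3, and at 13897, 13871 and 14702 CPM in control libraries 1, 2 and 3. On this TMM scale HTG 1 was the lowest and HTG 3 the highest of the 6, so the groups overlapped. The order of the libraries depended on the scaling. Scaled to library size alone, HTG 1 stood at 15241 CPM, HTG 2 was the lowest at 13250 CPM and control 3 the highest at 16275 CPM. The groups overlapped there too. It ranked 12th or 13th among all miRNAs of a library by count. By mean level over the 6 libraries, 14441 CPM, it stood below let-7a-5p (17231 CPM) and the acinar miR-217-5p (16072 CPM), and above miR-101a-3p and miR-101c (12689 and 12680 CPM). MiR-101a-3p and miR-101c also had nearly equal log2 fold changes, 0.0867 and 0.0866, so they may not be separate measurements.

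MiR-29c-3p, from the other cluster, followed at 1110.4, 1493 and 1696 CPM in HTG and at 1204, 1252 and 1349.9 CPM in control pancreas. With TMM scaling HTG 2 and 3 were above every control library and HTG 1 below every one. Scaled to library size alone, the levels were 1320, 1318 and 1535 CPM in HTG and 1178, 1218 and 1494 CPM in control pancreas. On that scale HTG 1 lay among the control libraries. MiR-29b-3p, the product of both clusters, stood at 266, 274 and 286 CPM in HTG and at 229.6, 236 and 251 CPM in control pancreas. Here all 3 HTG libraries were above all 3 control libraries. In each of the 6 libraries miR-29a-3p exceeded miR-29c-3p, by 9.64-fold to 11.5-fold, and miR-29c-3p exceeded miR-29b-3p, by 4.17-fold to 5.92-fold.

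The 5p arms were rare. MiR-29c-5p stood at 21.7, 22.6 and 25.2 CPM in HTG and at 15.9, 24.0 and 26.5 CPM in control pancreas, with both the lowest and the highest value in control. MiR-29b-2-5p, from the same cluster, stood at 8.39, 13.1 and 12.4 CPM in HTG and at 9.89, 11.1 and 17.7 CPM in control pancreas. HTG 1 was the lowest and control 3 the highest.

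MiR-29a-5p stood at 14.8, 9.68 and 12.0 CPM in HTG and at 8.52, 7.84 and 14.8 CPM in control pancreas. HTG 1 and control 3 shared the top. MiR-29b-1-5p stood at 5.81, 12.3 and 11.0 CPM in HTG and at 6.93, 7.96 and 11.2 CPM in control pancreas, and the groups overlapped. MiR-29c-5p was above miR-29b-2-5p in 6 of 6 libraries. Among the 3 rarest arms, miR-29b-2-5p was above miR-29b-1-5p in 6 of 6 libraries, though within counting error in the HTG libraries. MiR-29a-5p could not be placed beyond its spread: miR-29b-2-5p exceeded it in 5 of 6 libraries, and it exceeded miR-29b-1-5p in 4 of 6.

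**Figure D1:**
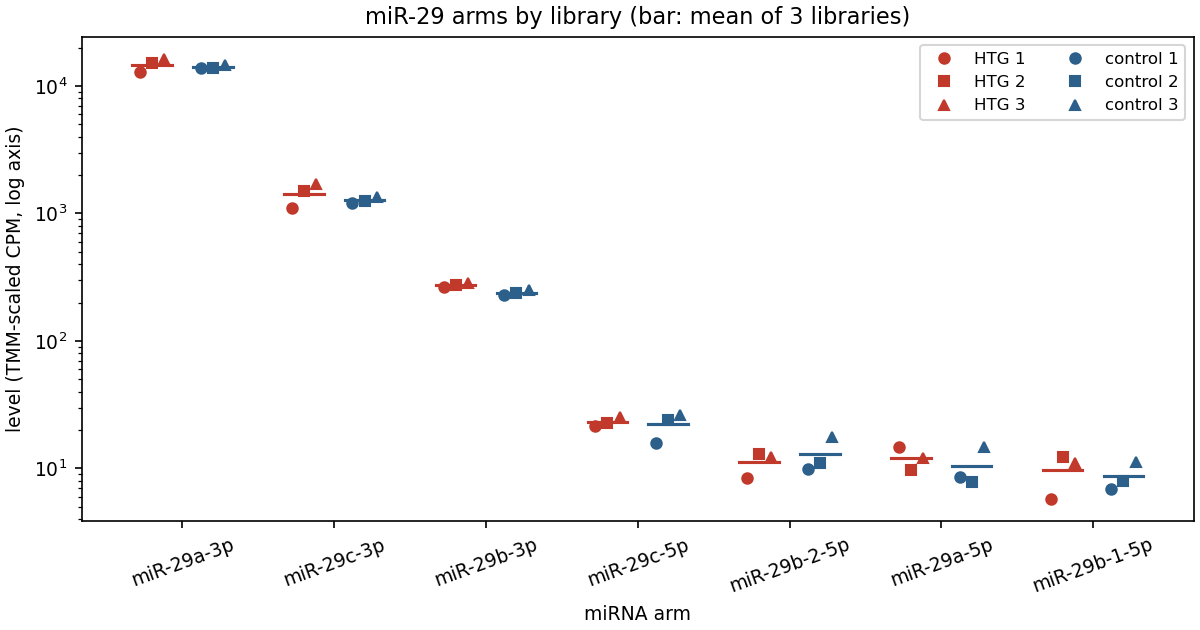
Level of each miR-29 arm in TMM-scaled CPM on a log axis, by library, with HTG in red, control in blue and a bar at the mean of 3 libraries. The 3p arms lie above the 5p arms in every library, with miR-29a-3p between 12817 and 16348 CPM, and the groups separate for miR-29b-3p alone.

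No member of the family differed past the threshold between HTG and control pancreas. EdgeR's quasi-likelihood test called 0 of the 7 members, against a background of 0.0% of the 488 miRNAs tested, and the Benjamini-Hochberg adjusted p was 0.996 for each. At an unadjusted p under 0.05 it called 0 members and 2.46% of all tested. DESeq2, limma-voom and limma on TPM likewise called 0 members and 0.0% of all miRNAs they tested. At an unadjusted p under 0.05 each called 0 members, against 1.68% of all miRNAs in DESeq2, 3.48% in limma-voom and 2.46% in limma on TPM. The share in DESeq2 is over 1074 miRNAs, as it was run without the filter on low counts, and those in limma are over the 488. The shares are therefore not directly comparable. The estimates of 6 members were above 0 and that of 1 was below, with a median log2 fold change of 0.16. Over all tested miRNAs 49.0% were above 0 and the median was -0.01.

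The abundant arms had the narrowest intervals. MiR-29a-3p averaged 14726 ± 1783 CPM in HTG and 14156 ± 472 CPM in control pancreas (SD, n = 3 each). The log2 fold change was 0.06 ± 0.14 (SE). Its 95% confidence interval, -0.27 to 0.38, corresponded to a 0.831-fold to 1.30-fold level. MiR-29c-3p averaged 1433 ± 297 and 1269 ± 74.1 CPM in HTG and control pancreas, with a log2 fold change of 0.18 ± 0.19 and an interval of 0.834-fold to 1.53-fold. MiR-29b-3p averaged 275 ± 10.1 and 239 ± 10.9 CPM in HTG and control pancreas, with a log2 fold change of 0.21 ± 0.14 and an interval of 0.919-fold to 1.45-fold.

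For the 5p arms the log2 fold changes were 0.06 ± 0.24 for miR-29c-5p, -0.20 ± 0.32 for miR-29b-2-5p, 0.22 ± 0.34 for miR-29a-5p and 0.16 ± 0.36 for miR-29b-1-5p (SE). Their intervals ran from -0.95 to 1.01 over the 4 arms, reaching 0.518-fold for miR-29b-2-5p and 2.01-fold for miR-29b-1-5p. Differences within these intervals could not be told from none with 3 libraries a group. The summed level of the 3p arms was 14193, 16780.3 and 18330.2 CPM in HTG, against 15330.5, 15359.7 and 16302 CPM in control pancreas. The difference of 0.06 on the log2 scale was within the spread between libraries (exact two-sided permutation p = 0.6, n = 3 each, where 0.1 is the smallest p that 3 against 3 libraries allow). It was 0.16 without HTG 1 (exact permutation p = 0.1, the smallest that 2 against 3 libraries allow) and -0.02 without HTG 3.

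**Figure D2:**
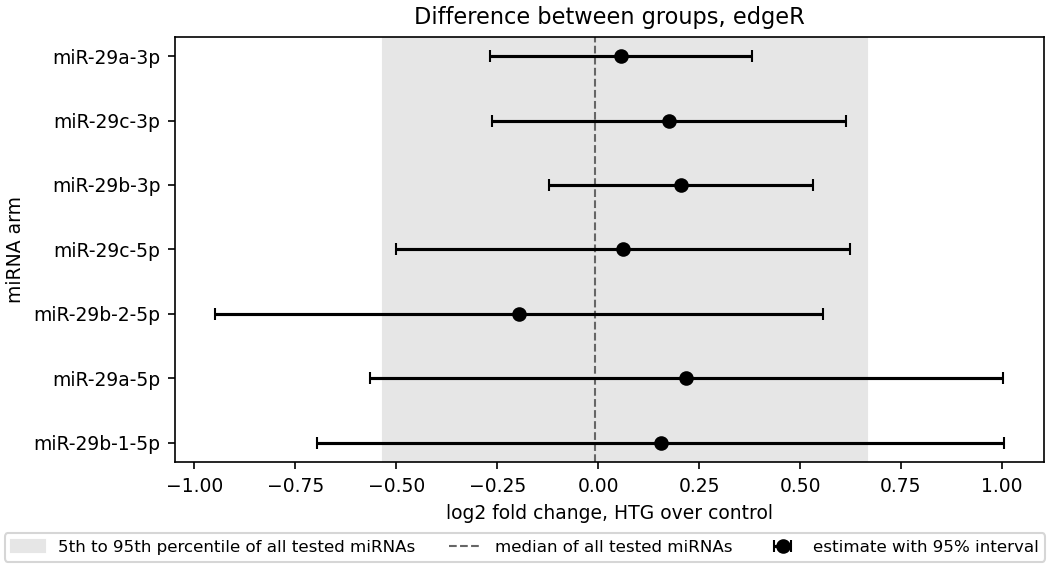
Log2 fold change of each miR-29 arm, HTG over control, with a 95% interval worked back from edgeR's log2 fold change and p-value. The grey band runs from -0.53 to 0.67, the 5th to the 95th percentile of all 488 tested miRNAs. All 7 intervals include 0, and those of the 3 3p arms are the narrowest.

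With TMM scaling miR-29b-3p was the only member whose groups did not overlap. It lay higher in 3 of 3 HTG libraries. Over all 488 tested miRNAs 4.3% were higher without overlap, or 21, and 7.99% did not overlap counting both directions. Between same-numbered libraries miR-29b-3p differed by 0.21, 0.21 and 0.19 on the log2 scale for libraries 1, 2 and 3. Positive differences in all 3 same-numbered libraries were seen for 9.43% of the tested miRNAs. The separation depended on the scaling. It held with relative log expression scaling, at 249, 286 and 298 CPM in HTG and at 227, 239 and 247 CPM in control libraries. There 21 of the 488 miRNAs were higher and 16 lower without overlap. On deposited TPM, scaled to library size alone, miR-29b-3p stood at 323, 246 and 264 in HTG and at 229, 234 and 283 in control libraries, which overlapped. On TPM 13 of the 488 were higher and 14 lower without overlap.

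Single libraries moved the fold changes of the abundant arms. With TMM scaling, leaving out HTG 1 put miR-29a-3p at 0.18 and miR-29c-3p at 0.36 on the log2 scale. Leaving out HTG 3 put them at -0.03 and 0.03. Without both libraries numbered 1 the log2 fold changes in edgeR were 0.23 for miR-29a-3p, 0.39 for miR-29c-3p and 0.29 for miR-29b-3p. Their unadjusted p-values were 0.117, 0.0288 and 0.0742 and their adjusted p-values 0.402, 0.293 and 0.378 in edgeR, so none passed. In that fit 13.8% of all miRNAs had an unadjusted p under 0.05. Without HTG 1 alone, miR-29c-3p had an unadjusted p of 0.0244 and an adjusted p of 0.514 in edgeR, with 9.0% of all miRNAs at an unadjusted p under 0.05. Without HTG 3 alone, its unadjusted p was 0.882 and its adjusted p 0.997 in edgeR. With TMM scaling, all 3 3p arms were higher without overlap in the libraries numbered 2 and 3, as were 20.3% of all tested miRNAs. Counting both directions, 48.2% of all tested miRNAs did not overlap there.

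Cell type markers also differed between HTG 1 and the other HTG libraries. In bulk tissue fewer cells of a type and less RNA per cell cannot be told apart. The 4 acinar markers summed to 317979 CPM in HTG 1, against 527832 and 510381 CPM in HTG 2 and 3 and 437373, 414034 and 319029 CPM in control 1, 2 and 3. Nearly all of this sum was miR-148a-3p, and the other acinar markers did not follow it in control 3. There miR-217-5p and miR-216b-5p had their highest levels of the 6 libraries, 21414 and 11405 CPM, and in HTG 1 their lowest, 10505 and 6378 CPM. The 5 leukocyte markers summed to 6096 CPM in HTG 1, against 1140.0 and 1357 CPM in HTG 2 and 3 and 3372, 4525 and 2268 CPM in control 1, 2 and 3. They did not move together. Of them miR-223-3p stood at 993, 769 and 948 CPM in HTG and at 663, 3510 and 1695 CPM in control pancreas. The others were highest in HTG 1, such as miR-142a-5p with 2204, 170 and 169 CPM in HTG and 1236, 473 and 221 CPM in control pancreas. The 5 stellate and mesenchymal markers summed to 35697, 19149 and 21657 CPM in HTG and to 60168, 25710.1 and 16649.9 CPM in control pancreas. Most of this sum was miR-143-3p, also known from smooth muscle, with 32184, 16158 and 18513 CPM in HTG and 56171, 22365 and 12982 CPM in control pancreas. MiR-199a-3p, a marker of stellate and mesenchymal cells, varied less, with 2138, 1909 and 2002 CPM in HTG and 1930.03, 2187 and 2302 CPM in control pancreas. None of the markers listed for these 3 cell types was at 0 in any library, and their part in the levels of miR-29 was not tested.

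**Figure D3:**
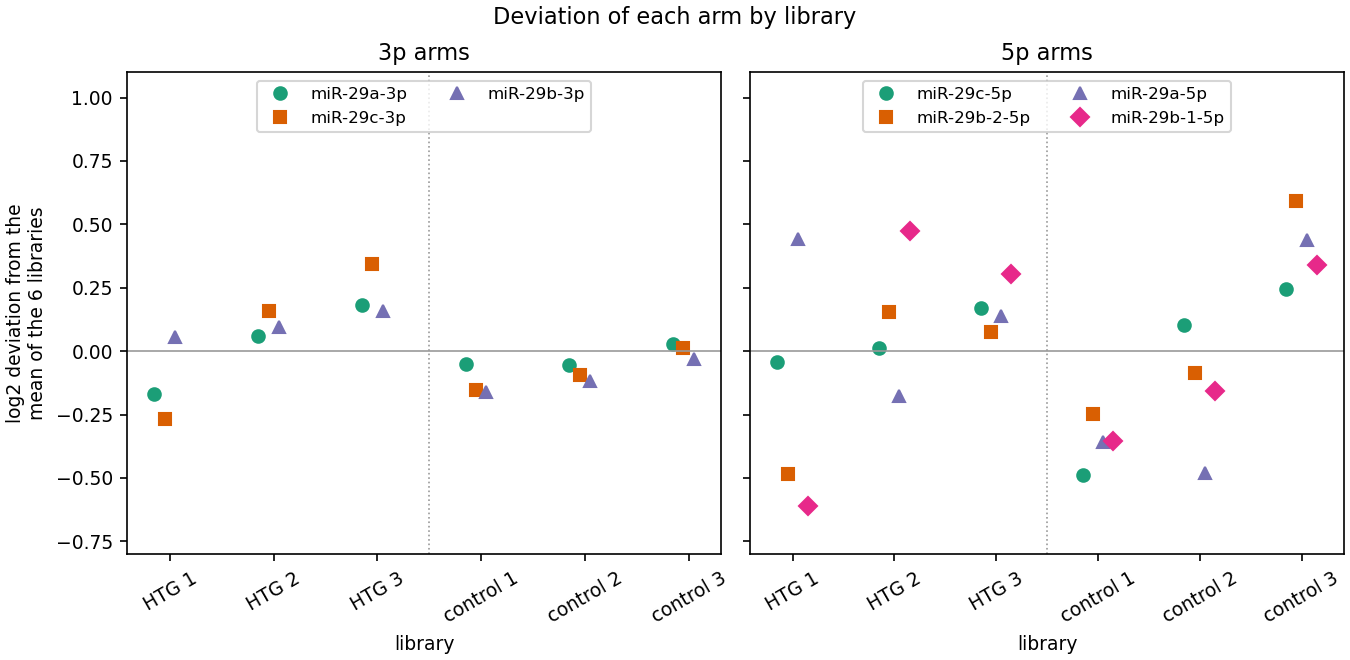
Log2 deviation of each arm's TMM-scaled level from its mean over the 6 libraries, with 3p arms at left and 5p arms at right. In HTG 1, miR-29a-3p and miR-29c-3p lie at -0.17 and -0.27 while miR-29b-3p lies at 0.05; the 5p arms scatter more widely, between -0.61 and 0.59.

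The 3p arms varied less than the 5p arms and ran closer together. Over the 6 libraries the SD of the log2 level was 0.12 for miR-29a-3p, 0.12 for miR-29b-3p and 0.22 for miR-29c-3p. The median was 0.19 over the 62 other tested miRNAs with a mean level of at least 1000 CPM. MiR-29b-3p, with a mean level of 257 CPM, was below that limit, so this median is a like comparison for miR-29a-3p and miR-29c-3p only. For the 5p arms the SD was 0.26 to 0.44, above the 0.12 to 0.22 that counting error gives at the lowest count of each arm. The median was 0.34 over the 487 tested miRNAs counted in all 6 libraries, so the 5p arms lay around it. The 5p arms were also rarer than the 3p arms, and the part of abundance in this contrast was not tested.

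For a pair of arms, likeness was measured as the SD of their log2 ratio over the 6 libraries, as a description. The 3 pairs of 3p arms had an SD of 0.11 to 0.17. MiR-29a-3p and miR-29c-3p come from different chromosomes, but they differ by 1 base and some of their reads may have been counted for the other. Arms of the same hairpin were farther apart, with 0.42 for miR-29a-3p and miR-29a-5p and 0.25 for miR-29c-3p and miR-29c-5p. These pairs include a rare 5p arm, for which counting error at the lowest count gives 0.17 (miR-29a-5p) and 0.12 (miR-29c-5p). The closest pair of 5p arms, at 0.22, was miR-29b-1-5p with miR-29b-2-5p, from different clusters. The widest pair, at 0.58, was miR-29a-5p with miR-29b-1-5p, whose hairpins lie in the same cluster.

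Outside the family, the miRNAs that ran most parallel to miR-29a-3p over the 6 libraries were miR-98-5p, miR-423-5p, miR-148a-5p, let-7g-5p and miR-101b-3p, in this order. Their SDs of the log2 ratio were 0.05, 0.05, 0.05, 0.07 and 0.07, where the median of 480 miRNAs compared was 0.37. MiR-29c-3p, at 0.11, had 15 of the 480 ahead of it, and miR-29b-3p, at 0.12, had 17. The 5 miRNAs most parallel to the summed 3p arms were the same 5, with miR-423-5p first. The library scaling cancels in these ratios, which are a description without a test.

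Ratios of counts within a library do not depend on scaling, and 5 of them were compared between the groups. Per 1000 counts of miR-29a-3p there were 20.8, 18.2 and 17.5 counts of miR-29b-3p in HTG libraries 1, 2 and 3, against 16.5, 17.0 and 17.1 in control libraries 1, 2 and 3. The HTG libraries were again all above the control libraries. The difference was 0.16 on the log2 scale (exact two-sided permutation p = 0.1, the smallest possible for n = 3 each, and 0.5 after Benjamini-Hochberg adjustment over the 5 ratios). Of 486 tested miRNAs set against miR-29a-3p, 2.26% had a higher ratio without overlap, and 6.58% did not overlap counting both directions. The gap between the groups was narrow. The exact 95% binomial interval was 16.9 to 18.2 in HTG 3 and 16.6 to 17.5 in control 3, and without HTG 1 the log2 difference was 0.08.

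Per 1000 counts of miR-29a-3p there were 86.6, 99.4 and 103.7 counts of miR-29c-3p in HTG libraries 1, 2 and 3, against 86.7, 90.3 and 91.8 in control libraries 1, 2 and 3. HTG 2 and 3 were above every control library, and HTG 1 was level with control 1. The log2 difference was 0.11 (exact permutation p = 0.4, adjusted p = 0.625, n = 3 each).

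**Figure D4:**
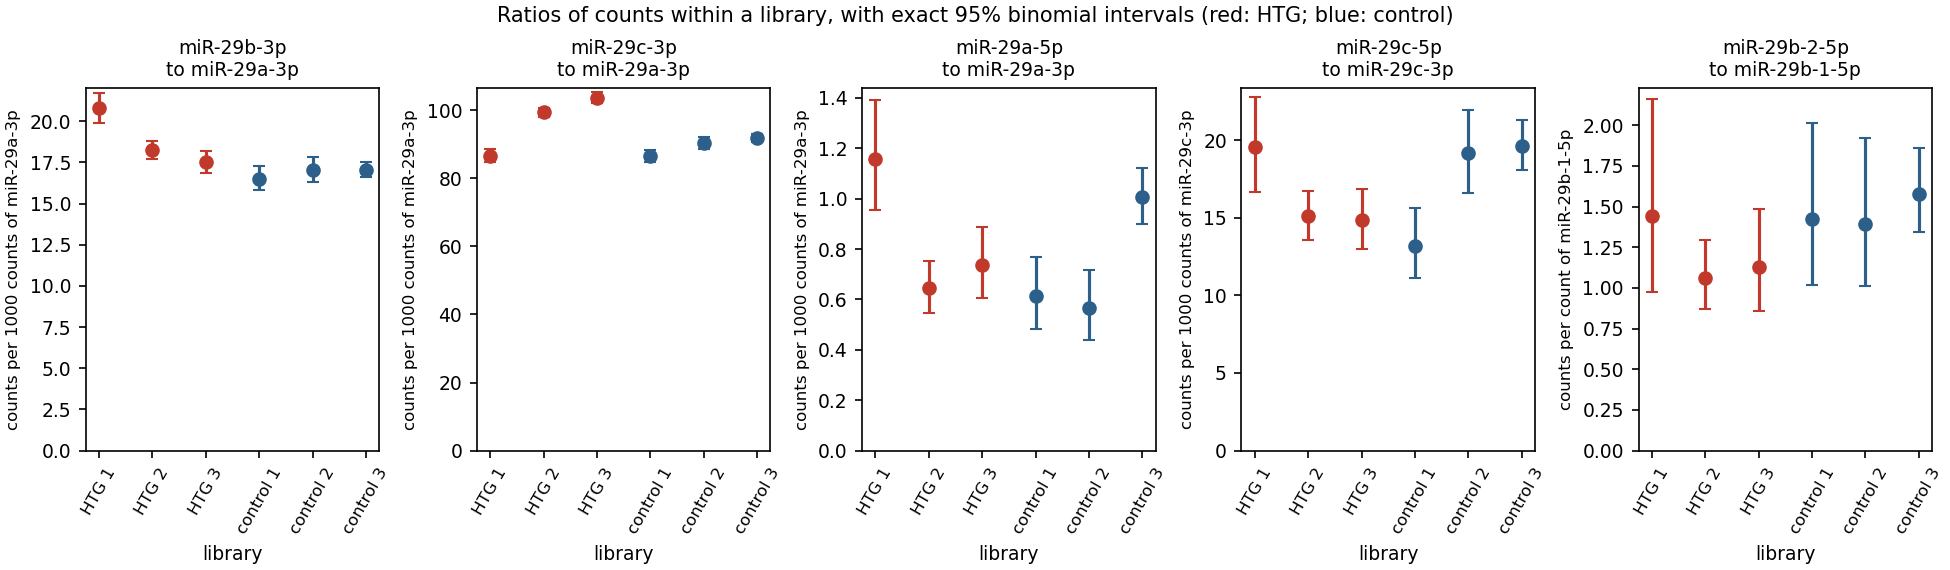
Ratios of counts between arms within each library, with exact 95% binomial intervals for counting error; HTG is red and control blue, and axes start at 0. The ratio of miR-29b-3p to miR-29a-3p is at least 17.5 per 1000 in the HTG libraries and at most 17.1 in the control libraries, while the groups overlap in the other panels.

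The 3p arm was the more abundant product of Mir29a and of Mir29c in all 6 libraries, but to a different degree. For miR-29a there were 863, 1551 and 1358 counts of the 3p arm per count of the 5p arm in HTG, against 1630.4, 1769 and 993 in control libraries. For miR-29c there were 51.2, 66.2 and 67.4 in HTG, against 75.7, 52.2 and 50.9 in control libraries. The groups overlapped for both hairpins.

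Within a library the 3p to 5p ratio of miR-29a was 16.9-fold to 33.9-fold that of miR-29c, higher in 6 of 6 libraries (exact two-sided sign-flip permutation p = 0.0312, the smallest that 6 libraries allow). The counts of arms with different sequences were not calibrated against known amounts, so this p concerns the counts alone. Between HTG and control, the log2 ratio of 5p to 3p differed by 0.22 for miR-29a (exact permutation p = 0.5, adjusted p = 0.625) and by -0.06 for miR-29c (exact permutation p = 0.9, adjusted p = 0.9; n = 3 each). Single libraries decided the first value: it was -0.03 without HTG 1 and 0.48 without control 3. For miR-29c the difference was -0.37 without both libraries numbered 1, and leaving out 1 library gave -0.25 to 0.04.

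The 5p arms of miR-29b mark its hairpins, though their counts were not calibrated against known amounts. There were 1.44, 1.06 and 1.13 counts of miR-29b-2-5p per count of miR-29b-1-5p in HTG libraries 1, 2 and 3, against 1.43, 1.39 and 1.58 in control libraries 1, 2 and 3. The Mir29b-2 arm was the more abundant in each of the 6 libraries. HTG 2 and 3 were below every control library, and HTG 1 lay among them. The log2 difference was -0.29 (exact permutation p = 0.3, adjusted p = 0.625, n = 3 each).

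A list of 28 other miRNAs known from fibrosis and the extracellular matrix was set beside the family, and all 28 were tested. EdgeR, DESeq2, limma-voom and limma on TPM called 0 of them. At an unadjusted p under 0.05 edgeR, limma-voom and limma called 0 and DESeq2 1, where the shares over all miRNAs were those given above for the family. EdgeR had 4 of the 28 at an unadjusted p under 0.05 without HTG 1 and likewise 4 without both libraries numbered 1, against 9.0% and 13.8% of all miRNAs. EdgeR gave 14 estimates above 0 and 14 below, with a median log2 fold change of -0.00. The 4 most abundant were miR-21a-5p (-0.15 ± 0.18), induced in injury, the smooth muscle miR-143-3p (-0.45 ± 0.52), miR-26a-5p (-0.16 ± 0.13) and miR-30a-5p (0.00 ± 0.17; SE). Among the 28, the groups did not overlap for miR-26a-5p, lower in HTG, and for miR-15a-5p, higher in HTG. These 2 were named after their values were seen, and 7.99% of all tested miRNAs did not overlap. MiR-26a-5p stood at 22747, 21780.2 and 22999.7 CPM in HTG and at 23208, 24075 and 28293 CPM in control pancreas. MiR-15a-5p stood at 368, 366 and 382 CPM in HTG and at 304, 316 and 338 CPM in control pancreas. The adjusted p in edgeR was 0.996 for both.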

How the data were processed

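Per the labels' protocols, Trizol RNA went into the NEXTflex kit for small RNA, version v3. The submitters' processing notes name Bowtie 1.1.1 and GRCm38. Not given in the sources used here were trimming, mismatches, the handling of reads matching several miRNAs and the miRNA release. Some names had the same edgeR result, such as miR-199a-3p and miR-199b-3p, both with a log2 fold change of -0.0857. Shares over all miRNAs count such names separately. The authors deposited whole-number read counts per mature miRNA. Beside them they deposited TPM values, which divide each count by 1 total per library and take no account of length. The count test was edgeR 4.0.16 under R 4.3.3 (filterByExpr with at least 10 counts and a total of 15; TMM; quasi-likelihood test, two-sided; Benjamini-Hochberg adjustment over 488 miRNAs at 0.05), and tested on simulated data. As alternatives, limma 3.58.1 was run on log2(TPM + 1) and through voom, and DESeq2 1.42.0 on the counts. Sums and ratios were compared by exact permutation of libraries. The species prefix mmu- of miRNA names is mostly left out. The text names all members, the miRNAs of smallest SD of the log2 ratio, the neighbours in abundance and the 4 most abundant of the fibrosis list. Members and lists were chosen with earlier results of these data known. Same-numbered libraries deviated together from their group means (r = 0.47, 0.19 and 0.25 for numbers 1, 2 and 3, across miRNAs, which are not independent replicates). Differently numbered libraries 2 and 3 correlated alike (0.21 and 0.23). Those numbered 1 correlated negatively with all others of the other group (-0.36 to -0.27). Deviations from a group mean cancel out within the group, so these signs are tied to the r of number 1. They are not separate evidence that number 1 stood apart. The numbers come from the sample titles and were used as a block in an alternative.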

Additional observations from a re-analysis of the deposited data

How the results depend on the processing

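Each member's log2 fold change was recomputed under 14 other settings, and no member was called in any (smallest adjusted p = 0.293). Of the 98 values, 91 kept their sign. Library size scaling put miR-29a-3p at -0.00253. Leaving out 1 library gave -0.0298 to 0.181 for miR-29a-3p, 0.0323 to 0.364 for miR-29c-3p, 0.171 to 0.263 for miR-29b-3p, 0.0488 to 0.563 for miR-29a-5p, -0.0562 to 0.446 for miR-29b-1-5p, -0.324 to 0.104 for miR-29b-2-5p and -0.0593 to 0.207 for miR-29c-5p. Over all miRNAs edgeR called 1 without the filter and 0 to 2 when 1 library was left out (2 without control 1). Leaving out both libraries numbered 1, chosen after seeing the data, called 4 miRNAs and put the log2 difference of the miR-29c-5p to miR-29c-3p ratio at -0.373. Why these values moved was not tested. With the replicate block 0 miRNAs were called, and 27 in place of 12 had an unadjusted p under 0.05; it changed no call. Leaving out 1 library gave -0.0209 to 0.164 for the summed 3p level and -0.0312 to 0.477 for the miR-29a-5p to miR-29a-3p ratio; no sum or ratio other than that of miR-29c moved by more than the spread between libraries. The lowest counts of the 5p arms were 45 to 140; their spread between libraries was larger than counting error at these counts.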
